A study of Mus musculus with 4 samples.

Results

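The mitochondrial ribosomal proteins were read on the array as the genes whose symbol in the platform annotation begins with Mrps or Mrpl and a number. There were 66 of them among 11138 genes with 1 symbol, 23 with a small-subunit symbol (Mrps) and 43 with a large-subunit symbol (Mrpl). RNA came from cardiac endothelium, the cells that line the vessels of the heart, of mice that had received lipopolysaccharide (LPS) by intraperitoneal injection. It was compared with the same preparation from mice given saline, at 4 h and at 24 h, after amplification, on long-oligonucleotide arrays (Operon, mouse version 1) read in 2 colours. LPS, from the outer membrane of Gram-negative bacteria, acts through Toll-like receptor 4. The strain, sex and age of the mice, the LPS dose, the number of animals in each RNA and the way the endothelium was isolated are unknown from the sources used here.

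The mitochondrial ribosome translates the few messenger RNAs coded by mitochondrial DNA, all of which give subunits of the oxidative phosphorylation complexes of the inner membrane. Its RNA parts are transcribed inside the organelle, while all of its proteins are coded in the nucleus, made in the cytosol and imported. Many of these proteins are descended from bacterial ribosomal proteins, and others were added in the mitochondrial lineage and have no bacterial counterpart. Endothelial cells are known for drawing much of their energy from glycolysis, and their mitochondria are often described as having signalling roles besides energy supply.

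Each time had 2 arrays. LPS RNA carried Cy5 on array 1 and Cy3 on array 2, and the sign of array 2 was turned so that values read as log2 LPS over saline. The dyes named in the labels make this direction likely, but the deposited table does not state it. If the ratios were Cy3 over Cy5 instead, every higher and lower in this report would change places. The check of signs that follows bears on turning 1 array of each pair, and cannot show which dye is on top. Over oligonucleotides with repeatable duplicate spots that were at least 2-fold from 1 on both arrays, the deposited signs were opposite for 180 of 186 (96.8%) at 4 h and for 435 of 458 (95%) at 24 h. Among the 66 genes, Mrpl40 at 24 h was the only one with such an oligonucleotide, and its deposited signs were opposite too. The labels name no separate animals for the reversed array, so the 2 arrays of a time were counted as 1 replicate. A test of LPS against saline treated each array as its own sample, as an alternative. In it, 0 of the 66 and 0 of all genes passed limma's Benjamini-Hochberg adjusted threshold at either time. An unadjusted limma p under 0.05 was found for 1 of the 66 at 4 h (1.52%, all genes 4.26%). At 24 h 8 had one (12.1%, all genes 10.1%). A value given with ± gives the mean of a time's arrays and their SD (n = 2 arrays), an error of arrays and dyes that leaves out how mice vary. A gene is called where each array was 2-fold or more (1 log2 unit) from 0 and both fell on the same side.

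The 66 genes were measured by 148 spots, the 2 adjacent spots of each of 74 oligonucleotides. For 59 genes there was 1 oligonucleotide, and Mrpl1, Mrpl12, Mrpl20, Mrpl24, Mrpl39, Mrpl44 and Mrpl58 had several. Duplicate spots of these genes agreed weakly, with correlations across 74 oligonucleotides of -0.07 and -0.16 on arrays 1 and 2 at 4 h, and of 0.20 and 0.42 at 24 h. Over all 16224 oligonucleotides the correlations were 0.19, 0.28, 0.32 and 0.32. Across the 66 genes, the 2 turned arrays correlated at 0.12 at 4 h and at 0.00 at 24 h, against 0.12 at each time across all genes. These are descriptions across probes and genes that share arrays. For this reason the single spots are given below beside the values of called genes.

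The start regions of these genes were searched for the letters of known regulators, which the choice by symbol did not use. Of the 66 genes, 58 were found in RefSeq's promoter table (assembly GRCm38.p6), which holds 250 bases before and 50 after each start. The letters CCGGAAG, bound by ETS factors such as GABPA, a known regulator of mitochondrial genes, stood on either strand in 22 of 58 genes (37.9%), against 14.9% of 8807 array genes with a promoter, and in 34.4% of the genes' 64 promoters, against 8.86% of all 32851 promoters. The YY1 letters AAGATGGC stood in 9 of 58 genes (15.5%, array genes 4.03%) and in 14.1% of their promoters (all promoters 2.75%). The consensus palindrome of NRF1, shown in capitals in promoters printed below, stood in 3 genes (5.17%, array genes 1.95%) and in 4.69% of their promoters (all promoters 0.971%). The E-box CACGTG stood in 3 genes (5.17%), against 10.5% of array genes, and in 5 of their 64 promoters (7.81%), against 7.15% of all promoters. The NF-kB consensus, of interest since LPS activates NF-kB, stood in 0 of 58, against 0.534% of array genes and 0.411% of all promoters. The ETS and YY1 letters can share the bases AAG when one follows the other, and they did so in 0 of these genes. Matches are letters only, and their absence says nothing about a factor.

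The 250 bases before the start are shown for 5 genes on which the results below turn, 5′ to 3′ on the gene's strand, with matches to the searched letters in capitals. Mrpl40 (chr16:18876638-18876887, minus strand) was the 1 gene 2-fold lower in every spot at 24 h, and Mrps7 (chr11:115603890-115604139, plus strand) was the 1 gene called at both times. Neither holds any of the searched letters in these 250 bases. The YY1 letters counted for Mrps7, and those for Mrps18a below, reach into the bases after the start and are not marked.
Mrpl40: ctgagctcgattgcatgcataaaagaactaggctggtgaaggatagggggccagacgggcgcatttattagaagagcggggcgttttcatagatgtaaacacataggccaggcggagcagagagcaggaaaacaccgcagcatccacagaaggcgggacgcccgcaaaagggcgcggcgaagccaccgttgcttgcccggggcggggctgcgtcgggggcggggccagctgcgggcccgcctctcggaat
Mrps7: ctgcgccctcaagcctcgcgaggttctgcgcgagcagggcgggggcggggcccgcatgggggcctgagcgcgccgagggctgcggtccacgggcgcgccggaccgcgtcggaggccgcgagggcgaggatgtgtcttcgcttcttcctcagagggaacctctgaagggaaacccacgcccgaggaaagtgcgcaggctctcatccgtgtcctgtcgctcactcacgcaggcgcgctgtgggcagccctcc
Mrps18a (chr17:46110754-46111003, plus strand) had the highest mean at 24 h and holds the ETS letters 26 bases before its start. Mrpl9 (chr3:94443086-94443335, plus strand), called lower at 24 h, and Mrpl39 (chr16:84735245-84735494, minus strand), above 0 in all its spots at 24 h, hold the NRF1 letters 28 and 125 bases before their starts.
Mrps18a: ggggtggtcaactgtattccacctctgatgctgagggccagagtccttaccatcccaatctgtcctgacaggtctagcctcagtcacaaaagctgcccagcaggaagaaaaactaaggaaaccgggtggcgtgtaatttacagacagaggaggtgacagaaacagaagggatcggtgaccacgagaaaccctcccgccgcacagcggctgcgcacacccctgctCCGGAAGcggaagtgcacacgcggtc
Mrpl9: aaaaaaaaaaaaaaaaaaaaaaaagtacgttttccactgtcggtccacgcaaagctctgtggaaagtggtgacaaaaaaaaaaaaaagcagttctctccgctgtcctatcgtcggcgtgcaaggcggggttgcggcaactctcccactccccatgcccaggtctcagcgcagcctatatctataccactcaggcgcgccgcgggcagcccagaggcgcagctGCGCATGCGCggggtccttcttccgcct
Mrpl39: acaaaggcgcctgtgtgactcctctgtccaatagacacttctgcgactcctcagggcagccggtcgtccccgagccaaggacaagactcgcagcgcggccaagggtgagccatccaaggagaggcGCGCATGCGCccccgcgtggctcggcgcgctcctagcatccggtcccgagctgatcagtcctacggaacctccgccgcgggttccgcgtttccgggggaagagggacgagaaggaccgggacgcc

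At 4 h the family showed no common shift. Mrps7 and Mrpl49 were called higher and 0 genes lower, 2 of 66 (3.03%), beside 3.25% of all genes called at this time (2.25% higher and 0.997% lower). The median of the 66 log2 ratios was 0.01 (0.07 on array 1 and 0.00 on array 2), against -0.02 over all genes, and their interquartile range ran from -0.29 to 0.43. Both arrays lay above 0 for 16 genes (24.2%) and below 0 for 14 (21.2%), against 24.3% and 25.6% of all genes. Mrpl46 was 2-fold in opposite directions on the 2 arrays (-1.82 and 1.08), which 1.42% of all genes were. In RNA from a tissue preparation, fewer cells of a type and less RNA per cell cannot be told apart.

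**Figure D1:**
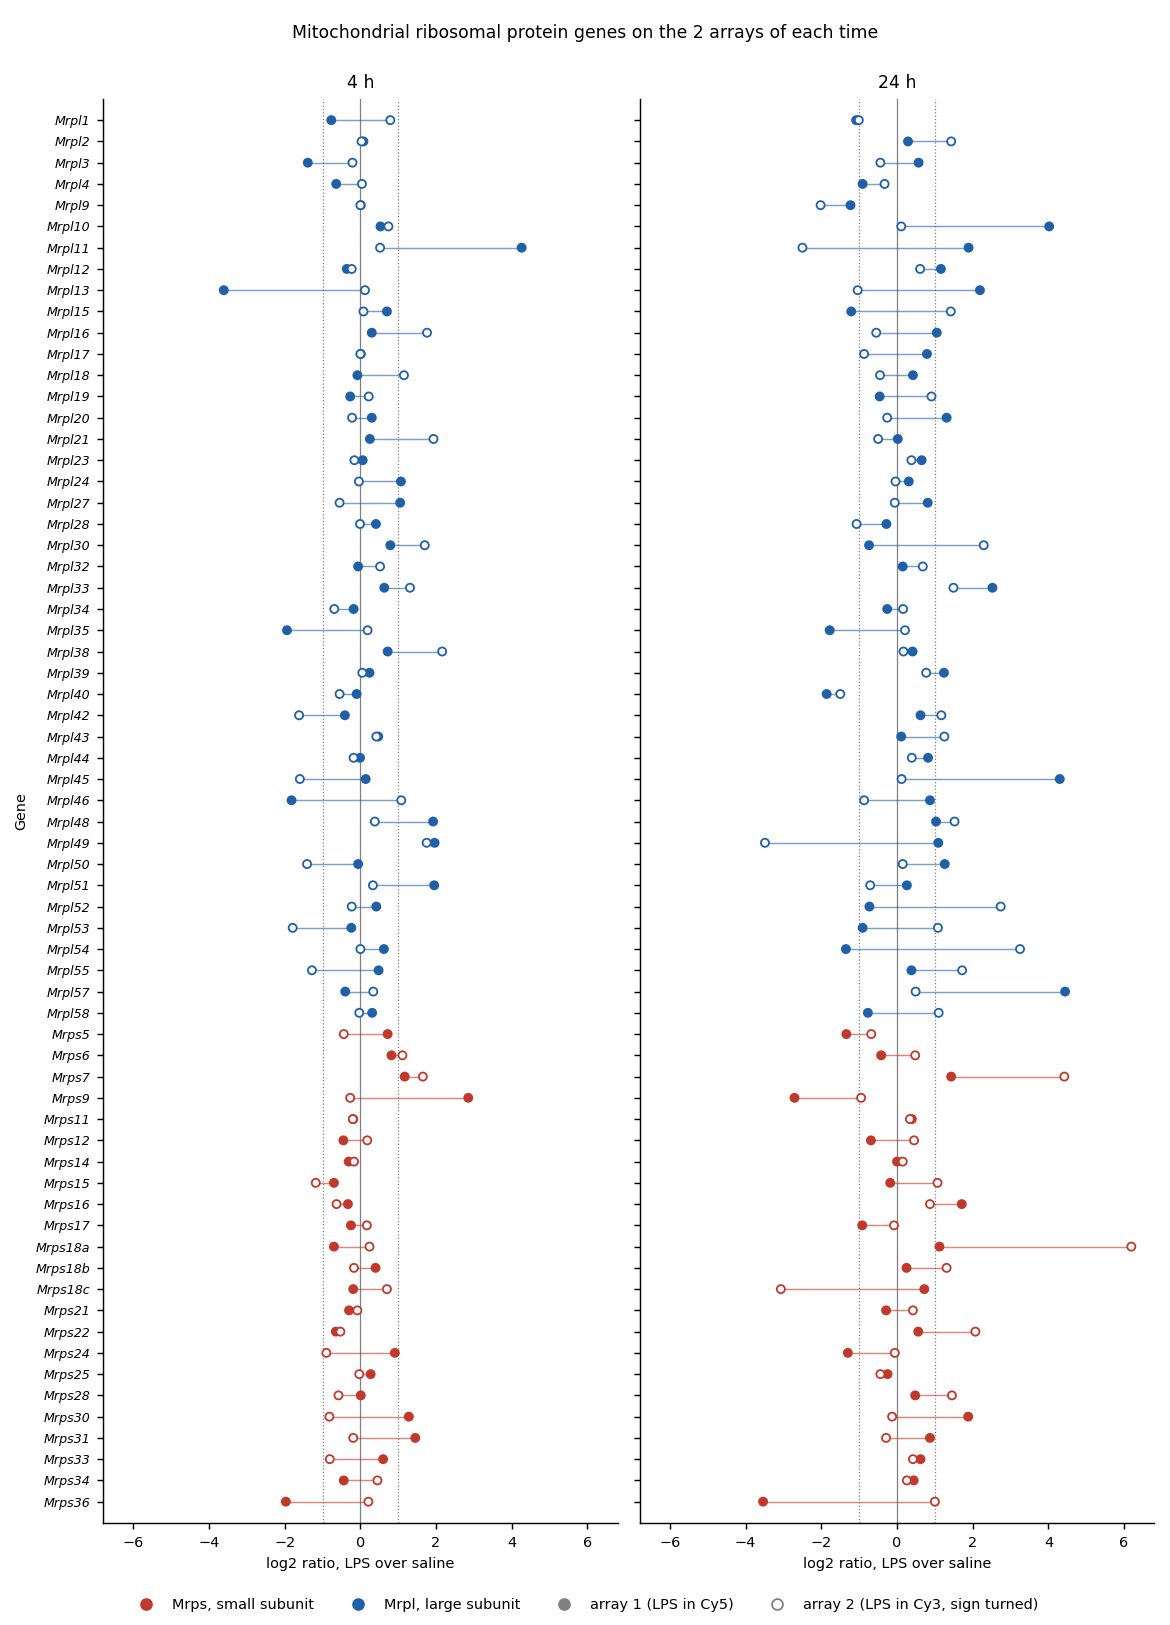
Log2 LPS over saline of each of the 66 mitochondrial ribosomal protein genes on each array, for 4 h and 24 h. A line joins the 2 arrays of a time, and small and large subunit are marked by symbol. At 4 h the means run from -1.75 (Mrpl13) to 2.39 (Mrpl11) around a median of 0.01, and at 24 h from -1.83 (Mrps9) to 3.65 (Mrps18a) around a median of 0.29.

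Mrps7 belongs to the protein family that binds the ribosomal RNA of the small subunit's head. Its log2 ratio at 4 h was 1.17 on array 1 and 1.65 on array 2, a mean of 1.41 ± 0.34. Its spots read 1.12 and 1.21 on array 1 and 3.80 and -0.51 on array 2, so that the second array's value rested on 1 of its 2 spots. Mrpl49, a large-subunit protein without a bacterial counterpart, stood at 1.96 and 1.75, a mean of 1.86 ± 0.15. Its arrays agreed closely while its spots did not, at 0.01 and 3.92 on array 1 and at -1.16 and 4.66 on array 2. Without the spot of array 1, whose ratio was exactly 1, the mean was 2.85. Neither call held in every spot, whereas 175 of all 11138 genes (1.57%) were 2-fold on the same side in every spot.

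The other extreme means at 4 h rested mostly on 1 array. Mrpl11, a protein of the base of the stalk where translation factors bind, had the highest mean, 2.39, with 4.26 on array 1 and 0.52 on array 2. Its spots on array 1 were 8.52 and 0.01. Mrps9, whose bacterial relative reaches toward the transfer RNA sites of the small subunit, stood at 2.85 and -0.27. Mrpl38 was higher on both arrays without reaching 2-fold on the first, at 0.72 and 2.16. One of its spots had a ratio of exactly 1 on both arrays, and without such spots its mean was 2.88 in place of 1.44 and it was called. At the low end, Mrpl13 stood at -3.61 and 0.12, and Mrps36 at -1.97 and 0.21. The Mrps36 product has since been assigned to the oxoglutarate dehydrogenase complex rather than the ribosome. Mrps15 (-0.70 and -1.18), Mrpl42 (-0.41 and -1.62) and Mrpl53 (-0.24 and -1.79) lay below 0 on both arrays. Every spot lay above 0 for 6 genes (9.09%, Mrpl10, Mrpl30, Mrpl33, Mrpl43, Mrpl48 and Mrpl51) and below 0 for 5 (7.58%, Mrpl34, Mrpl42, Mrps11, Mrps15 and Mrps22), against 10.7% and 10.9% of all genes.

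At 24 h the family lay slightly above the middle of the array, with members on both sides. Mrps7, Mrps18a, Mrpl33 and Mrpl48 were called higher and Mrpl1, Mrpl9 and Mrpl40 lower, 7 of 66 (10.6%), beside 7% of all genes called at this time. By direction, 3.48% of all genes were called higher and 3.52% lower. The median of the 66 was 0.29 (0.38 on array 1 and 0.24 on array 2), against -0.02 over all genes, with an interquartile range from -0.20 to 0.87. Both arrays lay above 0 for 26 genes (39.4%, all genes 26.1%) and below 0 for 10 (15.2%, all genes 26.1%). The mean lay above 0 for 45 of the 66. Opposite 2-fold values were found for 6 genes (9.09%), Mrpl11, Mrpl13, Mrpl15, Mrpl49, Mrpl54 and Mrps36, against 3.69% of all genes. The 6 opposite and 7 same-direction genes are thus similar in number.

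**Figure D2:**
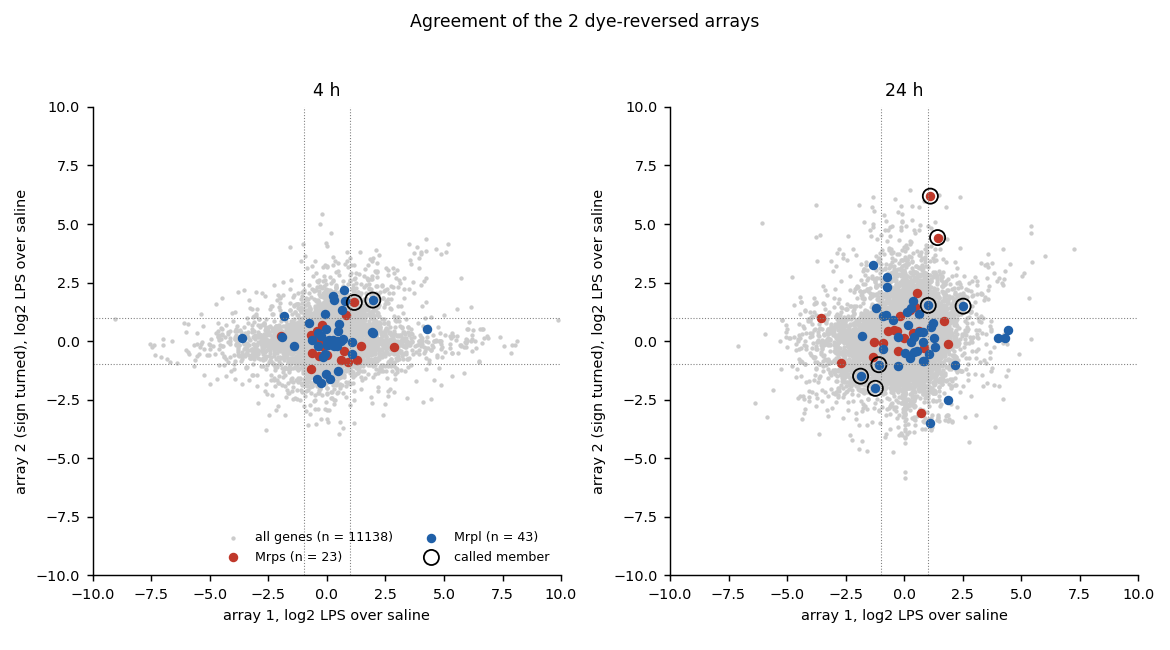
Log2 LPS over saline of every gene on array 1 (horizontal) against array 2 with its sign turned (vertical) at 4 h and 24 h, with all 11138 genes in grey, the Mrps and Mrpl genes in colour, dotted lines at 2-fold and rings around the called members. Mrps7 and Mrpl49 are ringed at 4 h and 7 genes at 24 h, and several members lie far from 0 on 1 array while near 0 on the other.

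Mrpl40 is a large-subunit protein without a bacterial counterpart. It stood at -1.86 on array 1 and -1.50 on array 2 at 24 h, a mean of -1.68 ± 0.26, or 3.21-fold lower with LPS. Its spots were -1.85 and -1.87 on array 1 and -1.47 and -1.52 on array 2. It was the 1 member of 66 that was 2-fold in every spot, which 406 of all genes (3.65%) were. At 4 h it stood at -0.10 and -0.55. Its start, whose upstream bases are printed above, lies 113 bases from that of Hira, a histone chaperone gene read from the opposite strand, which stood at 0.05 and -0.34 at 24 h, a mean of -0.14 ± 0.27.

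The other calls at 24 h rested on spots that differed. Mrpl9, a large-subunit protein with a bacterial counterpart, stood at -1.23 and -2.02, a mean of -1.62 ± 0.56, from spots of -2.41 and -0.05 on array 1 and of -3.97 and -0.06 on array 2. Without spots whose ratio was exactly 1, its mean at 24 h was -2.60. Both of its spots had such a ratio on both arrays of 4 h. Mrpl1, the protein of the stalk that guides the spent transfer RNA out, stood at -1.08 and -1.01, a mean of -1.05 ± 0.05. The close agreement of its arrays hid a disagreement of its oligonucleotides, whose means at 24 h were 0.43 and -2.52.

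Among the genes called higher at 24 h, Mrps7 stood at 1.43 and 4.42, a mean of 2.93 ± 2.11, with spots of -1.70 and 4.56 on array 1 and of 6.10 and 2.74 on array 2. Thus it was called at both times, with 1 of 4 spot values below 0 each time. Mrps18a stood at 1.12 and 6.19, a mean of 3.65 ± 3.59, and its array 2 spots agreed at 6.30 and 6.08 while those of array 1 were -0.44 and 2.67. Despite its symbol, its product lies in the large subunit. It has a pair of paralogues, Mrps18b (0.25 and 1.31) and Mrps18c (0.72 and -3.07), neither of them called. Mrpl33, a small protein of the large subunit, stood at 2.52 and 1.49, a mean of 2.00 ± 0.73, with spots of 6.73 and -1.69 and of 1.41 and 1.56. Mrpl48 stood at 1.03 and 1.52, a mean of 1.28 ± 0.34. All 4 of its spot values lay above 0, at 1.41, 0.66, 0.62 and 2.41.

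**Figure D3:**
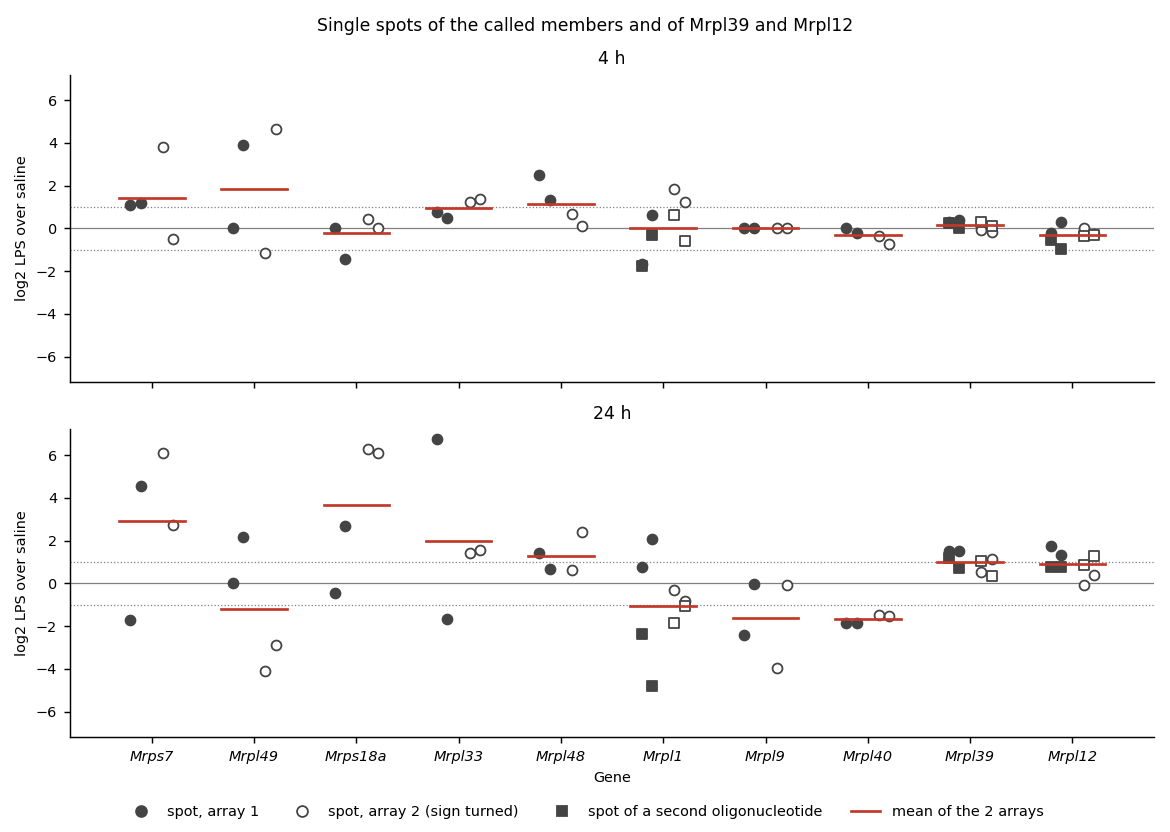
Log2 LPS over saline of every single spot, by array and time, of the members called at 4 h or 24 h. Mrpl39 and Mrpl12, called at neither time, are shown beside them. The 4 spots of Mrpl40 at 24 h lie together between -1.87 and -1.47, while those of Mrps7 at 24 h run from -1.70 to 6.10.

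Members that were not called ranged at 24 h from -1.83 (Mrps9, -2.71 and -0.95) to 2.47 (Mrpl57, 4.44 and 0.49). Mrpl45, which sits at the exit of the protein tunnel near the membrane, stood at 4.30 and 0.12, and Mrpl10, at the base of the factor-binding stalk, at 4.02 and 0.11. For these 3 high means array 1 gave nearly all of the difference. In Mrpl57 and Mrpl10 it came from 1 spot of 8.44 and 7.55, whereas both spots of Mrpl45 were high, at 5.18 and 3.41. At the low end, Mrps36 stood at -3.54 and 1.00 and Mrpl49, called higher at 4 h, at 1.09 and -3.49. Every spot lay above 0 for 9 genes (13.6%, all genes 12.2%), Mrpl10, Mrpl23, Mrpl39, Mrpl42, Mrpl45, Mrpl48, Mrpl57, Mrps28 and Mrps33. Every spot lay below 0 for 5 (7.58%, all genes 12.8%), Mrpl4, Mrpl28, Mrpl40, Mrps5 and Mrps9.

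The 7 genes with several oligonucleotides allow a check within the gene. Mrpl39, a relative of threonyl-tRNA synthetases without a bacterial ribosomal counterpart, had oligonucleotide means of 1.18 and 0.83 at 24 h, with all 8 spot values between 0.34 and 1.53. Its arrays stood at 1.24 and 0.77, a mean of 1.00 ± 0.33, and at 0.24 and 0.05 at 4 h. Mrpl12, the stalk protein that also binds the mitochondrial RNA polymerase, had oligonucleotide means of 0.85 and 0.92 at 24 h and 7 of 8 spot values above 0. Its arrays stood at 1.16 and 0.61, a mean of 0.89 ± 0.38, and at -0.36 and -0.23 at 4 h. Both genes were thus higher with LPS on both arrays of 24 h without both reaching 2-fold. In the other 5 the oligonucleotides lay on opposite sides of 0 at 24 h. Those of Mrpl44, which has a fold of the ribonuclease III family, had means of 1.64 and -0.43 (arrays 0.82 and 0.39, and -0.01 and -0.18 at 4 h). Those of Mrpl58, a peptidyl-tRNA hydrolase that frees stalled ribosomes, had means of 1.11 and -0.77 (arrays -0.77 and 1.10, and 0.31 and -0.03 at 4 h). Mrpl20 gave 1.18 and -0.13 (arrays 1.31 and -0.26, and 0.30 and -0.22 at 4 h), and the 3 oligonucleotides of Mrpl24 gave -0.74, -0.14 and 1.29 (arrays 0.31 and -0.04, and 1.07 and -0.04 at 4 h).

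Between the times, a gene was called where its means were 1 log2 unit or more apart and the arrays of the times did not overlap. This held for 19 of 66 (28.8%), beside 19.8% of all genes. Higher at 24 h than at 4 h were 10 (15.2%, all genes 9.43%) and lower 9 (13.6%, all genes 10.3%). Without the limit on size, both 24 h arrays lay above both 4 h arrays for 16 of 66 genes (all genes 17.9%). They lay below them for 12 of 66 (all genes 19.6%). Genes thus differed between the times in both directions in the family, as they did over the whole array. Of the 19, 0 were separated by 1 log2 unit in every spot. The share of all genes by that every-spot rule is not given here. The sources used here do not say whether the times shared their saline RNA.

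Among the 10 higher at 24 h, Mrps18a differed most, by 3.88, from -0.70 and 0.24 at 4 h. Mrpl57 differed by 2.50, from -0.40 and 0.34. The next 4 had both arrays below 0 at 4 h and above 0 at 24 h. Mrpl42 stood at -0.41 and -1.62 and then at 0.62 and 1.17, a difference of 1.91. Mrps22, mutated in a human disorder of mitochondrial translation, stood at -0.65 and -0.53 and then at 0.56 and 2.07, a difference of 1.90. Mrps16, also mutated in such a disorder, stood at -0.33 and -0.63 and then at 1.71 and 0.87, a difference of 1.77. In Mrpl50 the 4 h value of array 2 (-1.41) was the mean of spots at -7.69 and 4.87, and the difference was 1.44 with 24 h values of 1.26 and 0.15. Mrps15 (-0.18 and 1.07 at 24 h) differed by 1.38, Mrps28 (0.01 and -0.58, then 0.48 and 1.45) by 1.25, Mrpl12 by 1.18 and Mrpl33 (0.63 and 1.31 at 4 h) by 1.03.

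Among the 9 lower at 24 h, Mrps9 and Mrpl49 differed most, by -3.12 and -3.05. Both were among the 5 highest means at 4 h and the 5 lowest at 24 h. Mrpl9 differed by -1.63, Mrpl40 by -1.36 and Mrpl1 by -1.06, from -0.77 and 0.79 at 4 h. These 3 are the genes called lower at 24 h. Mrpl51 stood at 1.95 and 0.33 and then at 0.26 and -0.71, a difference of -1.37. Mrpl21 stood at 0.25 and 1.93 and then at 0.02 and -0.50, a difference of -1.33. Its 1.93 was the mean of spots at -0.28 and 4.13, and its 0.02 came from spots whose ratio was exactly 1. Mrpl38 (0.41 and 0.17 at 24 h) differed by -1.15, and Mrps5 (0.72 and -0.44, then -1.34 and -0.68) also by -1.15. Mrpl48 was not among the 19, since it stood at 1.92 and 0.38 at 4 h.

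The small and large subunits differed at 24 h by less than the spread of the arrays. The median of the 23 Mrps genes was 0.29 (0.25 and 0.42 on the arrays) and that of the 43 Mrpl genes 0.29 (0.41 and 0.16). Small minus large was 0.00 from the 2-array means of the genes. On the single arrays it had opposite signs, -0.16 and 0.25 (SD 0.29). At 4 h the Mrps median was -0.04 (-0.19 and -0.17) and the Mrpl median 0.05 (0.14 and 0.04). There small minus large was -0.10 from the 2-array means of the genes, and -0.32 and -0.21 on the single arrays (SD 0.08). Both arrays lay above 0 at 4 h for 2 of 23 Mrps (8.7%) and 14 of 43 Mrpl genes (32.6%), against 24.3% of all genes. They lay below 0 for 6 Mrps (26.1%) and 8 Mrpl genes (18.6%), against 25.6% of all genes. Called genes were 1 Mrps (4.35%) and 1 Mrpl (2.33%) at 4 h, against 3.25% of all genes. At 24 h they were 2 Mrps (8.7%, both higher) and 5 Mrpl (11.6%, 2 higher, 3 lower), against 7% of all genes. Known structures place Mrps18a and Mrps30 in the large subunit and leave out Mrps36. Grouped so, small minus large was -0.08 at 4 h and -0.19 at 24 h. On the single arrays it was -0.22 and -0.22 at 4 h. At 24 h it had opposite signs, -0.30 and 0.21 (SD 0.36). That grouping was added after the values were seen.

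The genes also fall into those with a bacterial counterpart and those specific to mitochondria, a grouping made after the values were seen. At 24 h the 38 with a counterpart had a median of 0.07 (0.09 and 0.03 on the arrays) and the 22 mitochondria-specific ones a median of 0.56 (0.59 and 0.40). The mean lay above 0 for 18 of these 22 and for 22 of the 38. Both arrays did for 12 of 22 (54.5%) and 10 of 38 (26.3%), against 26.1% of all genes. At 4 h the medians were 0.03 and 0.05. Calls at 24 h were 4 of 38 (10.5%) and 2 of 22 (9.09%), against 7% of all genes, and Mrpl40, called lower, is one of the 22. The difference between the classes was not tested. The 6 genes left in neither class were Mrps18a, Mrps18b, Mrps28, Mrps30, Mrps36 and Mrpl55.

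**Figure D4:**
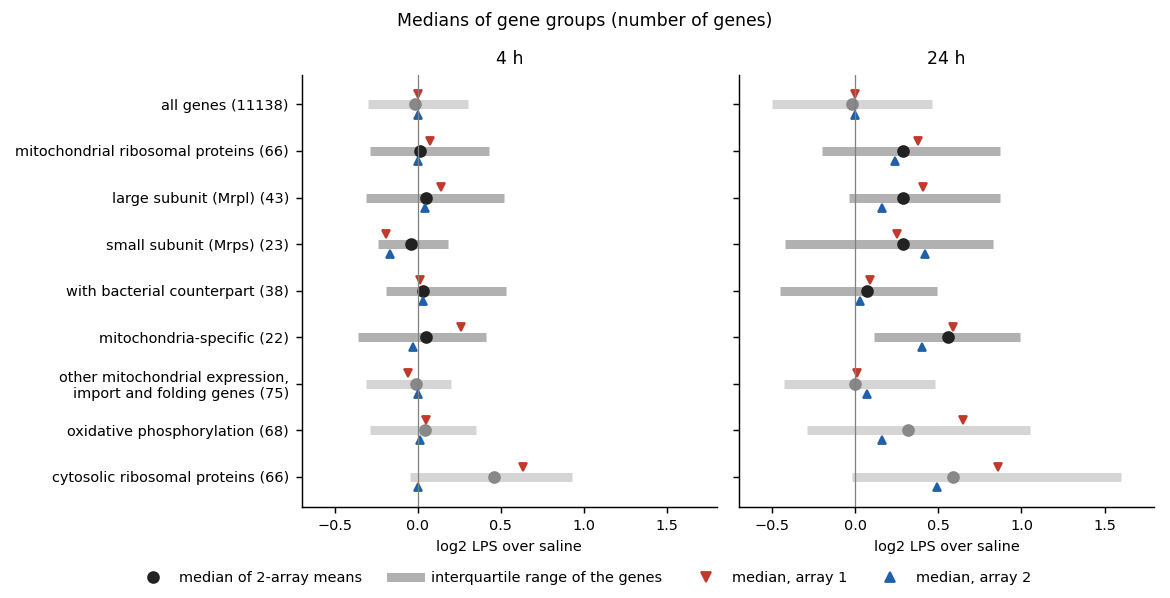
Median log2 LPS over saline of the mitochondrial ribosomal proteins, their subunits and other gene lists at 4 h and 24 h, with the medians of the single arrays and the interquartile range of the genes. The mitochondrial ribosomal proteins stand at 0.01 and 0.29, the cytosolic ribosomal proteins at 0.46 and 0.59, and the nuclear oxidative phosphorylation subunits at 0.04 and 0.32.

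Other lists of genes place the family beside the rest of its pathway. The 68 nuclear subunits of oxidative phosphorylation, the complexes that the mitochondrial ribosome serves, had similar medians. These were 0.04 at 4 h and 0.32 at 24 h (0.65 and 0.16 on the arrays). Of the 68, 1 was called higher and 1 lower at 4 h (2.94%, all genes 3.25%). At 24 h 9 were called higher and 1 lower (14.7%, all genes 7%). Between the times, 18 were higher at 24 h and 4 lower (32.4%, all genes 19.8%), against 10 and 9 of the mitochondrial ribosomal proteins. The 66 cytosolic ribosomal proteins stood higher, with medians of 0.46 at 4 h (0.63 on array 1 and 0.00 on array 2) and 0.59 at 24 h (0.86 and 0.49). Of these, 11 were called higher and 1 lower at 4 h (18.2%, all genes 3.25%), and 16 higher and 1 lower at 24 h (25.8%, all genes 7%). Against that, the mitochondrial ribosomal proteins had 2 and 7 calls. The difference between the 2 ribosomes was not tested.

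Genes that assist mitochondrial gene expression were called at 2 of 75 (2.67%, all genes 3.25%) at 4 h and 1 of 75 (1.33%, all genes 7%) at 24 h. The array measured 10 of 20 listed translation factors, 7 of 21 transfer RNA synthetases, 15 of 33 ribosome assembly factors, 15 of 24 genes of transcription and RNA handling and 28 of 33 of protein import and folding. Over these 75 genes the median was -0.01 at 4 h and 0.00 at 24 h, below the 0.29 of the ribosomal proteins at 24 h. The lists differed at 24 h. Protein import and folding had a median of 0.27, close to that of the ribosomal proteins. Assembly factors stood at 0.11, transcription and RNA handling at -0.01, transfer RNA synthetases at -0.36 and translation factors at -0.42. At 4 h the called ones were Myc (1.77 and 3.23), a transcription factor, and Timm23 (1.36 and 1.34), the channel of the inner membrane's import machinery, both higher and with 0 lower. At 24 h the called one was Tomm7 (1.27 and 2.84), a small part of the outer membrane's import pore. Of the ribosomal proteins whose symbols do not follow the Mrp pattern, 3 were measured, Dap3, Chchd1 and Ptcd3, with 0 called at either time. Dap3, a GTP-binding protein of the small subunit, had means of 0.59 at 4 h and 0.42 at 24 h.

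Values were also set beside the promoter letters. The 22 genes with the ETS letters had medians of 0.05 at 4 h and 0.27 at 24 h, and the 36 without them 0.03 and 0.27. Of the genes called higher at 24 h, Mrps18a, Mrpl33 and Mrpl48 (in 1 of its 4 promoters) hold the ETS letters and Mrps7 does not. The 9 genes with the YY1 letters, Mrps7 and Mrps18a among them, had medians of -0.13 at 4 h and 0.36 at 24 h. The 49 without them had 0.05 and 0.25. The 3 genes with the NRF1 letters lay on both sides at 24 h, with Mrpl9 at -1.62, Mrpl32 at 0.42 and Mrpl39 at 1.00.

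The table holds ratios only, so the level of endothelial markers, and thus the purity of the endothelium, cannot be read from it. Of 9 endothelial markers measured, Cldn5 was called higher (1.29 ± 0.10) and Eng and Kdr lower (-1.87 ± 0.84 and -1.89 ± 0.75) at 4 h, and Eng and Kdr higher at 24 h (3.91 ± 0.85 and 2.21 ± 0.48). Of 10 cardiomyocyte markers, whose cells are rich in mitochondria, 0 were called at 4 h and Ryr2 was called lower at 24 h (-1.40 ± 0.11), with list medians of -0.22 and -0.26. Of 8 leukocyte markers, 0 were called at 4 h and S100a8 and S100a9 were called higher at 24 h (2.59 ± 1.17 and 1.55 ± 0.08), with list medians of -0.28 and -0.45. The 4 fibroblast and 2 erythrocyte markers measured had 0 calls at either time. The part of a changed mix of cells in the values of the mitochondrial ribosomal proteins was not tested.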

How the data were processed

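The authors deposited log2 ratios of the 2 channels for 32448 spots per array. Scanner steps, background correction and dye normalization are unknown from the sources used here. Sizes checked under 2 log2 units were log2 of folds rounded to 0.01. Between 6.76% and 11.5% of member spots per array had a ratio of exactly 1, measured or filled in. No intensities were used, so the number of arrays (4) limits precision.

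The table was taken as Cy5 over Cy3, replicate 2 was turned, duplicate spots and then a gene's oligonucleotides were averaged, and the median over genes was subtracted from each array. Names came from the platform annotation, through which all 148 member spots matched RefSeq by gene identifier. The text gives both arrays for members called at a time or between times, for the 5 highest and 5 lowest means and for members with several oligonucleotides, and names called genes of other lists. The members, lists and rules were chosen with earlier results of these data known. Alternatives changed normalization, centring, spot choice, direction and threshold, or ran limma 3.58.1 in R 4.3.3 on arrays as separate samples. The limma fit and the calls were tested on simulated data. The arrays' spread may be technical.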

Additional observations from a re-analysis of the deposited data

Results flagged for a closer look

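For 5 genes both arrays lay on one side of 0 at 4 h and on the other side at 24 h, with means at least 1 log2 unit apart. In each of them the arrays lay below 0 at 4 h and above 0 at 24 h. The difference of 24 h minus 4 h was 1.91 for Mrpl42, 1.90 for Mrps22, 1.77 for Mrps16, 1.44 for Mrpl50 and 1.18 for Mrpl12. All genes gave 7.91% by the same rule (4.26% from below to above and 3.65% the other way), beside 5 of 66 (7.58%) here. With 1 replicate a time there was no test by design. With each array treated as its own sample instead, limma's Benjamini-Hochberg adjusted p for the difference was 0.804 for each of the 5. Mrpl42 alone among them had every spot below 0 at 4 h and above 0 at 24 h. With repeatable spots only, Mrpl12 was still called between the times.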

How the results depend on the processing

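At 4 h (2 called) the count was 4 of 62 without ratios of exactly 1 (all genes 3.82%), where Mrpl38 and Mrps6 were added. It was 0 of 24 with repeatable spots only (all genes 3.12%), a setting that kept pairs of spots with ratios of exactly 1. It was 1 with replicate 2 not turned (all genes 1.42%). It was 7 at 1.5-fold (all genes 8.45%) and 0 with every spot 2-fold (all genes 1.57%). At 24 h (7 called) it was 3 under scale normalization (all genes 3.97%), which kept Mrpl33, Mrpl40 and Mrps7, 1 of the 8 members left with repeatable spots (Mrpl40, all genes 10.5%), 13 at 1.5-fold (all genes 16.2%) and 1 with every spot 2-fold. Between the times (19 called) it was 16 of 59 without ratios of exactly 1 (27.1%, all genes 20.7%). There Mrpl9, Mrpl21, Mrpl49 and Mrps28 were no longer called and Mrps6 was added. It was 2 of the 6 left with repeatable spots (Mrpl12 and Mrpl40, 33.3%, all genes 22%). With every spot it was 0, a rule whose share of all genes between the times is not given here. At 24 h and between the times only 8 and 6 members were left with repeatable spots, too few to compare their shares. Mrpl1, Mrpl9, Mrpl33, Mrpl48, Mrps7 and Mrps18a, called at 24 h, had spots too far apart to be kept. In limma with Benjamini-Hochberg adjustment, which took the arrays as separate samples, 0 members and 0 genes passed in any of the 3 comparisons, with 1, 8 and 4 members at an unadjusted p under 0.05 (1.52%, 12.1% and 6.06%, all genes 4.26%, 10.1% and 5.73%). Single arrays gave 15 to 16 calls at 4 h, 27 each at 24 h and 28 to 32 between the times. The shares of all genes on single arrays are not given here, so these counts cannot be set against the whole array. They gave family medians of 0.00 to 0.07 at 4 h and 0.24 to 0.38 at 24 h, and small minus large of -0.32 to -0.21 at 4 h and -0.16 to 0.25 at 24 h.

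With replicate 2 not turned, none of the reported calls could recur, because the rules need both arrays to agree in direction. The lack of shared calls in that setting therefore carries no information. In it the 24 h median was -0.01 and small minus large at 24 h was -0.64. Mrps7 then stood at -0.24 at 4 h. At 24 h Mrps7 stood at -1.49, Mrps18a at -2.54, Mrpl48 at -0.24 and Mrpl9 at 0.39. Small minus large at 4 h was -0.20 with repeatable spots. The other 63 recomputed summary values did not move beyond the spread or 1.5 times. No paired analysis was possible because the labels number no replicates and each time has 1 replicate. Weak spots cannot be told from strong ones without intensities. The cause of these changes was not tested.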

Other observations

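Many of these genes share a start region with another gene. A protein-coding gene on the opposite strand began within 1000 bases before the start of 19 of 58 members (32.8%), against 909 of 8807 array genes with a promoter (10.3%). Mrpl46 and Mrps11, of the large and the small subunit, are partners of each other at 42 bases. Mrps11 stood at -0.19 and -0.20 at 4 h and at 0.39 and 0.34 at 24 h, while Mrpl46 had opposite signs on the arrays at both times (-1.82 and 1.08, then 0.87 and -0.87). Mrpl21 starts 32 bases from Ighmbp2, a helicase gene, which stood at -3.78 and -2.78 at 24 h, a mean of -3.28 ± 0.70, while Mrpl21 stood at 0.02 and -0.50. Mrpl30 starts 66 bases from Mitd1, which stood at 2.00 and 1.40 at 4 h, and Mrpl30 itself stood at 0.79 and 1.70. Mrpl2 starts 141 bases from Klc4, a kinesin light chain gene, which stood at 1.01 and 1.63 at 24 h, beside 0.29 and 1.43 for Mrpl2. These pairs were picked after their values were seen.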
